A study of Mus musculus with 8 samples.

Results

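Mouse embryonic fibroblasts (MEFs) lacking Ticam1 were compared with wild-type MEFs under DMSO, the vehicle arm of an experiment on the bacterial dinucleotide c-di-GMP. The comparison rests on 4 of the 8 Illumina single-colour bead arrays of the series, 2 per genotype, and its arrays were taken by their titles. Wild-type DMSO cells and knockout DMSO cells (written TICAM in the titles and TICAM1 in the study's design text) were grown in medium with 10% serum and given DMSO for 30 min, in the same amount as in the c-di-GMP arm, and total RNA was taken 4 h later. The other 4 arrays hold wild-type and knockout cells transfected with 8 µg/ml c-di-GMP by lipofection and harvested at the same time. MEFs are a mixed population of connective tissue cells cultured from mouse embryos. The knockout allele, the mouse strain, the sex and age of the embryos, the passage and whether a culture descends from 1 embryo or 1 clone were not given in the sources used here. No label states that the arrays of a group came from separate cultures. The p-values therefore cover the spread between arrays alone, possibly of technical origin, and the genotypes cannot be told apart from any other difference between the cultures. The study's stated comparison was c-di-GMP against DMSO; the genotype difference under DMSO is the baseline on which those responses stand.

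Ticam1 encodes TRIF, the adaptor through which Toll-like receptor 3 (a sensor of double-stranded RNA) and Toll-like receptor 4 (a sensor of lipopolysaccharide) reach the kinase Tbk1 and the transcription factor Irf3. Irf3 switches on interferon-beta, which acts back on the cells through a transcription factor that contains Stat2 and Irf9 and so raises a large set of interferon-stimulated genes. Fibroblasts keep a low level of these genes without any stimulus. MEFs in culture also differ from each other in lineage markers, matrix production, growth factor genes and the activity of the Cdkn2a and Cdkn2b inhibitors, which build up as primary cells approach senescence.

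Of the 8 arrays 1 stood apart in the number of probes detected. The second knockout DMSO array had a mean signal of 225.9 and 6468 of 25697 probes detected (detection p under 0.05), against 252.6 to 648.9 and 11254 to 11657 on the other arrays. Its signal at the 99th percentile was 7.55 times that at the 5th, against 38.3 to 83.0 times, and its lowest detected value after normalization was 7.53 (log2), against 5.36 to 5.45. Any value under 7.53 quoted below for this array is therefore undetected, also where it is not marked. A difference that uses such a value depends on the background level. Over the 9541 genes tested it correlated with the first knockout DMSO array at 0.822, whereas pairs within the other groups reached 0.980 to 0.992. The first knockout DMSO array correlated with the knockout c-di-GMP arrays at 0.991 and 0.993. Results below are from all 8 arrays. The count of each list is also given without the second knockout DMSO array, as is the value of a named gene whose call changed or whose fitted ratio moved by over 1.5 times and is not a bound. The fit without it leaves knockout DMSO with 1 array and borrows its spread from the other groups. Values are normalized log2 intensities, and differences are knockout minus wild type with the standard error (SE) of the limma model, n = 2 arrays per group. Where neither array of a group was above background for a gene, its ratio is a bound and is written as "at least N-fold". Bounds are from all 8 arrays unless stated. For genes undetected in knockout cells they are smaller with the weak array, whose lowest detectable value is high. Of the 9541 genes, 562 passed the detection filter only through wild-type arrays, so they had to be lower if they differed, and 350 only through knockout arrays. Lists for which no such count is given below may hold genes of either kind.

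Fibroblast markers were detected on all 4 DMSO arrays. Of 17 fibroblast and mesenchyme markers on the array, 16 were detected on each wild-type DMSO array, 16 on the first knockout DMSO array and 13 on the weak array, and their summed linear level was 66673 and 72803 in wild-type cells and 50586 and 73405 in knockout cells. The deletion itself could not be checked. The Ticam1 probe read 5.35 and 5.01 in wild-type cells, neither above background, and 5.63 (detected) and 5.01 (not detected) in knockout cells. The difference of 0.14 ± 0.32 did not pass (limma adjusted p = 0.783), and no source used here says whether the probe lies in the deleted stretch. Under DMSO the probe carries no information on the genotype.

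Knockout and wild-type cultures differed in many genes besides those of the interferon system. With all 8 arrays, 1214 of 9541 genes passed (12.7%; limma, Benjamini-Hochberg adjusted p under 0.05), 500 of them higher in knockout cells (5.24%) and 714 lower (7.48%). At an unadjusted p under 0.05 there were 2902. Without the weak array 2628 genes passed (27.5%), 1303 higher (13.7%) and 1325 lower (13.9%), among them 1213 of the 1214 in the same direction (the exception, Zfp868, was named after its values were seen). Leaving out another array gave 276 or 270 genes (first or second wild-type DMSO array), 558 or 559 (knockout c-di-GMP arrays), 730 or 751 (wild-type c-di-GMP arrays) and 6134 (first knockout DMSO array, which leaves the weak one to stand for the group). On all 1214 genes both knockout arrays lay beyond both wild-type arrays. Among all 9541 genes tested the same held for 2383 on the higher side and 2825 on the lower side. Such separation was therefore common and adds little to the calls. The median difference over all genes was -0.11 with 8 arrays and 0.05 without the weak array. The largest differences were on the lower side: 165 genes were lower by more than 3 log2 units and 44 were higher by as much. Of the 714 lower genes, 243 were not detected on either knockout array and a further 277 were undetected on the weak array only, whereas 71 of the 500 higher genes were undetected on both wild-type arrays. The split between higher and lower depends on the scaling. When arrays were scaled by their medians instead of by quantiles, the median over all genes moved to -0.65 and 159 genes passed, 5 higher and 154 lower. Under it 39 of the 1214 genes took the opposite sign, Thy1 and Mcm6 among those named below. Median scaling without the weak array, an alternative added after the data were seen, gave a median of 0.26 and 1684 genes, 1044 higher and 640 lower.

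The genes furthest lower were mostly interferon-stimulated, and those furthest higher were a mixed set of transporters, growth genes and patterning genes. Lyz1, which encodes the bacteria-digesting enzyme lysozyme, headed the lower side with 12.79 and 12.97 in wild-type cells against 4.57 and 4.64 in knockout cells, at least 86.4-fold lower (adjusted p = 4.53e-05). Slc1a3, the glutamate transporter GLAST, headed the higher side. It read 4.57 and 5.04 in wild-type cells, not detected, and 11.62 and 11.83 in knockout cells, at least 79.1-fold higher (adjusted p = 4.53e-05). Besides these, the 12 furthest lower held 7 named interferon-response genes (Ifit3, its close copy Ifit3b, Usp18, Isg15, Oasl2, Rsad2 and Gbp2), the cell cycle inhibitor Cdkn2b, the NADPH oxidase subunit Cyba, the small heat shock protein Hspb1 and a predicted gene, LOC100048346. The 12 furthest higher included Il1rl1, the receptor of interleukin-33, the homeobox gene Hoxd8, the surface sialomucin Cd34, Dlk1, the peptide hormone gene Cck, Igf2, the potassium channel subunit Kcnab1, the retinoic acid binding protein gene Crabp1, LOC100048436 and the amino acid transporter Slc6a15. On the probe read for each gene the groups were far apart. The detected probe with the smallest difference gave -1.27 for Gbp2, -2.34 for Oasl2, -4.52 for Usp18 and -7.04 for Ifit3. On the higher side it gave 1.03 for Il1rl1, 0.65 for Kcnab1 and 1.79 for Slc6a15. The rule that picked them took only genes with both knockout arrays beyond both wild-type arrays. The weak array therefore had to sit on the same side as the first knockout array. Crabp1 read 11.49 on the first and 9.10 on the weak array.

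**Figure D1:**
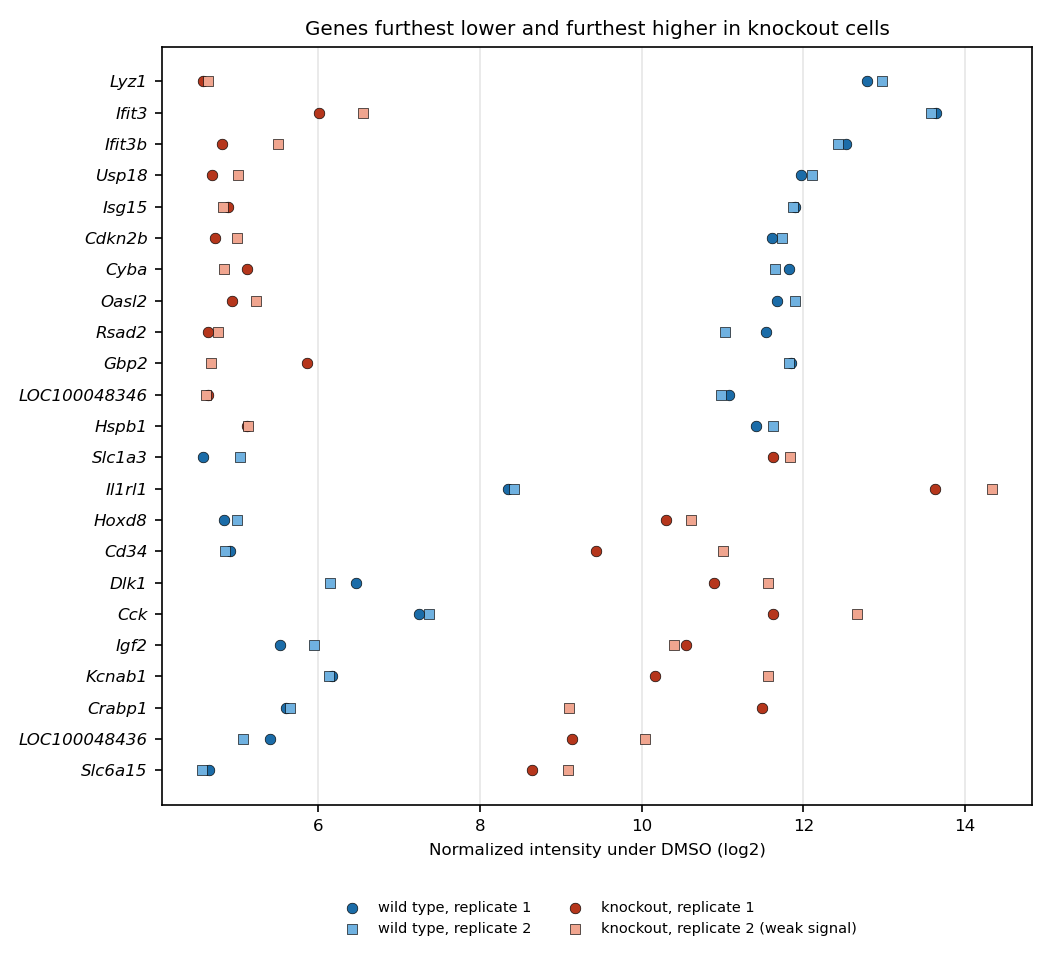
Normalized log2 intensity (x axis) of the 12 genes furthest lower and 11 of the 12 furthest higher in knockout cells, 1 point per DMSO array, with wild type in blue and knockout in red and the weak array as pale red squares. Lyz1 lies at 12.79 and 12.97 in wild-type cells and at 4.57 and 4.64 in knockout cells. On every gene shown both knockout points lie on the same side of both wild-type points, which the rule that picked the genes required.

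In unstimulated knockout cells 41 of 58 interferon-stimulated genes were lower. Of 68 such genes on the array 58 were tested, and 0 were higher and 17 not called. The median difference was -2.98, or -1.89 with undetected genes held at their bound, against -0.11 over all genes. Without the weak array 45 were lower and 1 higher. That exception was Ifitm1, a membrane protein that blocks virus entry, undetected on the wild-type DMSO arrays and at least 1.49-fold higher (adjusted p = 0.0436). Of the 58 tested, 28 passed the detection filter only through wild-type arrays and so had to be lower if they differed. Whether fewer cells expressed a gene or each cell held less of its RNA cannot be told apart in these bulk samples.

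The effectors were the furthest apart. Isg15, a ubiquitin-like protein attached to other proteins during infection, read 11.89 and 11.87 in wild-type cells and 4.89 and 4.82 in knockout cells. Neither knockout value was above background, so the gene was at least 43.3-fold lower (adjusted p = 4.53e-05), or at least 103-fold without the weak array. Usp18, which removes Isg15 from its targets, was at least 48.2-fold lower. Rsad2, the antiviral enzyme viperin, read 11.54 and 11.03 against 4.64 and 4.76, at least 28.6-fold lower (adjusted p = 5.28e-05). Ifit3, which helps to recognise viral RNA, was still detected on the first knockout array, with 13.63 and 13.58 against 6.01 and 6.55, a difference of -7.32 ± 0.28 (adjusted p = 4.53e-05). Gbp2, a GTPase that attacks the membranes around microbes, differed by -6.57 ± 0.40 on the probe read, and its 3 detected probes ranged from -6.57 to -1.27. The groups did not overlap on any of these genes, which the rule that picked the genes furthest lower required.

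Of the factors that carry the interferon signal, Stat2 and Irf9 were lower. Stat2 differed by -3.66 ± 0.30 and Irf9 by -2.72 ± 0.32. Irf7, the factor that amplifies interferon production, read 7.95 and 7.24 against 4.66 and 6.50. It missed the threshold with 8 arrays (adjusted p = 0.0718) and passed without the weak array, at least 5.14-fold lower (adjusted p = 0.00077). Irf3, the factor downstream of TRIF, differed by -0.29 ± 0.30 on the probe read (limma adjusted p = 0.517), and by -0.64 without the weak array. The value of Irf3 on the weak array, 10.61, lay inside the wild-type pair. With 8 arrays its 3 detected probes ranged from -1.62 to -0.29, and the probe read gave the smallest difference. Of the 20 tested genes for interferons, their receptors and their signalling, 3 were lower with 8 arrays, 15% against 12.7% of all genes, and 10 without the weak array (50% against 27.5%), and 0 were higher in either fit. Of the 20, 3 had passed the filter only through wild-type arrays and had to be lower if they differed. Ifnb1, interferon-beta itself, was not detected on any of the 4 DMSO arrays, so no genotype difference in it could be measured there.

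Several of these genes carry the letters bound by interferon-responsive factors close to their start sites. The sequences below are the 250 bases before the annotated start of the 3 interferon-stimulated genes with the largest difference among those that hold such letters. They are from RefSeq on GRCm38 (GRCm38.p6), printed 5′ to 3′ on the gene's strand, with the matches in capitals: Ifit3 at chr19:34583279-34583528 (plus strand), Isg15 at chr4:156200819-156201068 (minus strand) and Rsad2 at chr12:26456453-26456702 (minus strand).
Ifit3: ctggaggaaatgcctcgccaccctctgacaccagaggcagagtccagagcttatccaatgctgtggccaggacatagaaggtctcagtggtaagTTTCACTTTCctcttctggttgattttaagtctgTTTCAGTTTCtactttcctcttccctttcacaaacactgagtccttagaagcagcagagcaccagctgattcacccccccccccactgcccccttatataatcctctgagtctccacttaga
Isg15: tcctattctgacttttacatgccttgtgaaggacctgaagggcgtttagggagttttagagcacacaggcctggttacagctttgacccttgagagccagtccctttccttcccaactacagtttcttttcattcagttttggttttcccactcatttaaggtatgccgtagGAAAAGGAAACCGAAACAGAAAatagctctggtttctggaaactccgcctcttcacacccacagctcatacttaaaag
Rsad2: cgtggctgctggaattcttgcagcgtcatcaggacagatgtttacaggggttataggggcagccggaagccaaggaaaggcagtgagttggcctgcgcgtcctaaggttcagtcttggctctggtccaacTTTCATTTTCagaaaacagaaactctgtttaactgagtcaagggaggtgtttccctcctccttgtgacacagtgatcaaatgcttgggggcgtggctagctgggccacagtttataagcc
The letters searched were GAAANNGAAA, the core of the interferon-stimulated response element, on both strands with overlapping matches allowed. Isg15 held 3 overlapping matches, Ifit3 held 2 and Rsad2 held 1. Over windows of 250 bases before to 50 after the start, 18 of the 33 lower interferon-stimulated genes with a promoter in the table held the core (54.5%), against 3.44% of all 32851 promoters and 3.88% of the 7370 tested genes with a promoter. Of the 10 tested interferon-stimulated genes that were not called, 4 held it (40.0%). A match of letters describes the window and does not show that a factor binds there.

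Few genes upstream of interferon passed with 8 arrays. Among 26 tested genes of the TRIF, Toll-like receptor and STING pathway, 4 were lower and 0 higher with 8 arrays (15.4% called, near the share of all genes), and 11 lower and 2 higher without the weak array. The median was -0.90 and -0.46, respectively. In the fit without the weak array, which leaves 1 knockout DMSO array, the called share of this list lay above that of all genes. Of the 26, 3 had passed the filter only through wild-type arrays and had to be lower if they differed. Tlr3 read 6.18 and 5.88 in wild-type cells and 4.79 and 5.40 in knockout cells, -0.93 ± 0.30 (adjusted p = 0.093), and passed without the weak array as at least 1.65-fold lower (adjusted p = 0.00737). Tlr4 differed by -0.86 ± 0.56 (adjusted p = 0.326) and by 0.07 without the weak array. Tbk1 read 10.94 and 10.67 against 10.28 and 11.01, with the groups overlapping. The members that passed were led by Trex1, the nuclease that clears cytosolic DNA (-2.67 ± 0.59, adjusted p = 0.0316; -1.76 without the weak array), and the DNA sensor Ifi204, itself an interferon-stimulated gene, at least 2.23-fold lower.

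Cytokine and chemokine genes gave 14 lower and 1 higher of 30 tested with 8 arrays (median -1.17), and 18 and 3 without the weak array, and 11 of the 30 had passed the filter only through wild-type arrays. Il6, the inflammatory cytokine interleukin-6, read 11.10 and 11.17 in wild-type cells and 4.98 and 4.96 in knockout cells, at least 25.8-fold lower (adjusted p = 7.89e-05). Cxcl10, which draws in T cells, read 11.39 and 10.85 against 4.87 and 4.79, at least 25.6-fold lower. Ccl4 and Ccl5, chemokines of monocytes and T cells, were at least 14.7-fold and 11.9-fold lower. Knockout arrays showed none of these 4 above background. The higher gene was Ccl11, eotaxin, which attracts eosinophils. It read 6.35 and 6.13 in wild-type cells and 9.32 and 10.21 in knockout cells, a difference of 3.52 ± 0.37 (adjusted p = 0.00211). The 2 others that passed as higher without the weak array were the interleukin genes Il18, at least 1.73-fold (adjusted p = 0.0137; named after its values were seen), and Il33, at least 1.37-fold (adjusted p = 0.0476), both undetected in wild-type cells.

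Of the inflammatory, antigen-presenting and complement genes, those that passed with 8 arrays were lower. Of 23 tested targets and feedback genes of NF-kB, the main inflammatory transcription factor, 9 were lower and 0 higher, and 11 and 1 without the weak array, the higher one being the NF-kB subunit gene Nfkb1 (0.95, adjusted p = 0.0256), named after its values were seen. Of the 23, 2 had passed the filter only through wild-type arrays. Lcn2, an iron-trapping secreted protein, differed by -4.88 ± 0.34 (adjusted p = 0.00044), the acute-phase gene Saa3 by -2.34 ± 0.35 and the NF-kB cofactor Nfkbiz by -1.77 ± 0.26. Of 15 tested antigen presentation genes 7 were lower and 0 higher (9 and 0 without the weak array), but 7 of the 15 had passed the filter only through wild-type arrays and had to be lower if they differed. The called genes included the peptide transporter Tap2, at least 2.28-fold, and the class I molecule H2-T23, which read 10.56 and 10.36 against 8.14 and 8.43 (-2.18 ± 0.27). Among 10 complement genes 4 were lower and 0 higher (7 and 0 without the weak array), and 3 of the 10 had passed the filter only through wild-type arrays. They include Serping1, the C1 inhibitor, at least 6.35-fold, and Cd59a, a shield against the terminal complex, by -2.99 ± 0.32 (adjusted p = 0.00211).

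Of 13 tested markers of macrophages and other leukocytes, 8 were lower in knockout cells and 0 higher with 8 arrays, and 8 and 1 without the weak array. Of this list 15 genes were on the array. The summed linear level of the 13 tested was 12337 and 13108 in wild-type DMSO cells and 659 and 434 in knockout DMSO cells, and 12 and 12 of the 15 were detected against 4 and 0. The lysozyme genes Lyz1 and Lyz2 carried most of that sum: without them it was 2898 and 2928 in wild-type cells and 606.9 and 381.3 in knockout cells. Of the 13, 9 had passed the filter only through wild-type arrays. Beside Lyz1 stood Lyz2, a near-identical lysozyme gene whose signal the probes may share, with 11.22 and 11.09 against 4.84 and 4.80 (at least 26.1-fold lower). Detected probes of Lyz2 ranged from -6.33 to -1.94. Adgre1, the macrophage antigen F4/80, read 9.47 and 9.75 against 4.55 and 4.67, at least 8.97-fold lower (adjusted p = 0.000123). Laptm5, a lysosomal protein of blood cells, was at least 8.15-fold lower. Cd14, the lipopolysaccharide co-receptor of monocytes, went the other way on the first knockout array, with 7.17 and 7.21 in wild-type cells and 8.10 and 6.31 (the last undetected) in knockout cells. Its difference was 0.02 with 8 arrays (adjusted p = 0.984) and 0.94 without the weak array (adjusted p = 0.0139). Not every defining marker was present in wild-type cells. Ptprc, the pan-leukocyte antigen CD45, and Itgam, CD11b, were detected on none of the 8 arrays, and Csf1r and Cd68 were detected on both wild-type DMSO arrays and on 1 knockout DMSO array. The lower markers were low on the same arrays as the interferon, cytokine and protease genes, and their part in those results was not tested.

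The cell cycle inhibitors of the Cdkn2 locus were present in wild-type cells and undetected in knockout cells. Cdkn2a, which encodes p16Ink4a and p19Arf, read 11.12 and 10.68 in wild-type cells and 4.75 and 5.53 in knockout cells, at least 21.9-fold lower (adjusted p = 0.000369) and at least 51.8-fold without the weak array. Its neighbour Cdkn2b, which encodes p15Ink4b, read 11.60 and 11.73 against 4.72 and 5.00, at least 37.4-fold lower (adjusted p = 4.53e-05). Neither gene was above background on a knockout array. Mtap, which lies next to them and was looked up after the values were seen, read 9.62 and 9.62 in wild-type cells and 10.83 and 8.92 in knockout cells (0.26 ± 0.57, adjusted p = 0.778; 1.22 without the weak array, adjusted p = 0.00674), and its detected probes differ in sign. Among 28 tested p53 targets and cell cycle inhibitors 4 were lower and 0 higher with 8 arrays, 14.3% against 12.7% of all genes, and 5 of the 28 had passed the filter only through wild-type arrays. Without the weak array 11 were lower and 1 higher, the inhibitor gene Cdkn2d (1.45, adjusted p = 0.027). The called share of this list was near that of all genes with 8 arrays and above it without the weak array. The other genes called with 8 arrays were the pro-death genes Pmaip1, at least 4.49-fold lower, and Bbc3, with -1.30 ± 0.27 (adjusted p = 0.0244).

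Most DNA replication genes tested were higher in knockout cells. Of 31 tested, 20 were higher and 0 lower with 8 arrays, 26 and 0 without the weak array, with a median of 1.67 and 1.50. Mcm2, a subunit of the ring-shaped helicase that opens DNA at origins, read 7.24 and 7.36 in wild-type cells and 9.57 and 10.26 in knockout cells, a difference of 2.62 ± 0.30 (adjusted p = 0.00282). Mcm3 and Mcm5, of the same ring, differed by 2.63 ± 0.33 and 2.55 ± 0.27. Lig1, the ligase that joins newly made fragments, read 8.43 and 8.70 against 10.24 and 12.18, 2.65 ± 0.58 (adjusted p = 0.0312). The weak array was the higher of the knockout pair on each of these 4 genes, and without it their differences were 1.69 to 2.39. Under median scaling the list's median stayed positive, at 0.58 with 8 arrays and 1.73 without the weak array.

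The promoters below belong to the 3 higher replication genes with the largest difference that hold an E2F-type match before the start site. E2F factors drive the entry into DNA synthesis. The searched letters were TTTCGCGC and TTTGGCGC on both strands, with overlapping matches allowed, and the 250 bases before the start are given with matches in capitals, from RefSeq on GRCm38: Mcm5 at chr8:75109259-75109508 (plus strand), Uhrf1 at chr17:56304063-56304312 (plus strand) and Mcm6 at chr1:128359706-128359955 (minus strand). Uhrf1, which guides DNA methylation at replication forks, differed by 2.34 ± 0.51 (adjusted p = 0.0312; 1.50 without the weak array) and Mcm6 by 1.14 ± 0.29 (adjusted p = 0.0469). Both were taken for this display after their values were seen.
Mcm5: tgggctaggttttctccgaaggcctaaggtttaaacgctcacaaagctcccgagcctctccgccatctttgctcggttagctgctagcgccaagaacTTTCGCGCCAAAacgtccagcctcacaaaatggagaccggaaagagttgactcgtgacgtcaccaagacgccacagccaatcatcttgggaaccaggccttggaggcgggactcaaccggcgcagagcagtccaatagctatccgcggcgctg
Uhrf1: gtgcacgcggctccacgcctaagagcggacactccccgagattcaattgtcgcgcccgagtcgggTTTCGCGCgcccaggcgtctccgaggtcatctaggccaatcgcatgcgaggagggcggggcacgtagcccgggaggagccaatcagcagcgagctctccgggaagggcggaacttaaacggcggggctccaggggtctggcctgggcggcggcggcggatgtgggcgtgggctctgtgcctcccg
Mcm6: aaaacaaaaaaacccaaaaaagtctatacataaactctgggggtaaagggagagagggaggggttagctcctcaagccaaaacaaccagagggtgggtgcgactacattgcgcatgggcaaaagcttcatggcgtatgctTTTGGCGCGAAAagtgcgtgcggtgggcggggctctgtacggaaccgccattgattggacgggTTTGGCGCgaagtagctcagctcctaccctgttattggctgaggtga
In the window that ends 50 bases after the start, 7 of the 17 higher replication genes with a promoter held such a match (41.2%), as did 1 of the 10 that were not called (10.0%), 0.813% of all promoters and 1.87% of tested genes. Of 22 mitosis genes with a promoter 1 held it.

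Mitosis genes that passed were higher in knockout cells. With 8 arrays 53.8% of those tested were called, against 12.7% of all genes. Calls rose over all genes as well when the weak array was left out. Of 26 tested, 14 were higher and 0 lower with 8 arrays and 25 and 0 without the weak array, with a median of 1.79 and 2.10. 3 of the 26 had passed the filter only through knockout arrays. Ccna2, cyclin A, was undetected in wild-type cells (5.07 and 4.84) and read 7.91 and 9.28 in knockout cells, at least 9.04-fold higher (adjusted p = 0.00368) and at least 6.15-fold without the weak array. Birc5, survivin, read 8.97 and 8.81 against 11.43 and 12.39, 3.02 ± 0.36 (adjusted p = 0.00317). Cdca3, which triggers mitotic entry, and the cytokinesis motor Kif23 differed by 2.83 ± 0.35 and 2.76 ± 0.28. Anln, an actin-binding protein of the cleavage furrow, shows what the weak array does. It read 9.48 and 9.50 in wild-type cells, 11.57 on the first knockout array and 7.12, undetected, on the weak one, so the difference was -0.14 ± 1.25 with 8 arrays and 2.10 ± 0.30 without (adjusted p = 0.00333). Detected probes of Anln differ in sign. No source used here gives the cell numbers or growth rates of the cultures.

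**Figure D2:**
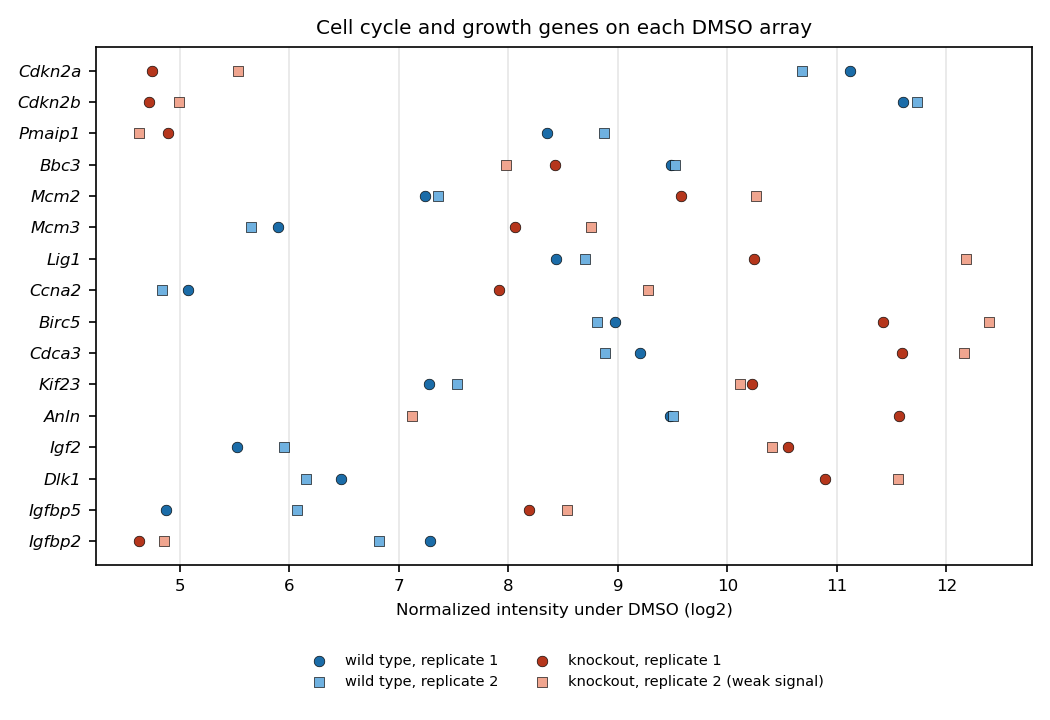
Normalized log2 intensity (x axis) of cell cycle inhibitors, replication and mitosis genes and insulin-like growth factor genes on each DMSO array, with wild type in blue, knockout in red and the weak array as pale red squares. Cdkn2a and Cdkn2b lie between 10.68 and 11.73 in wild-type cells and at or below 5.53 in knockout cells, replication genes lie the other way round, and Anln is the gene on which the weak array falls on the opposite side of the wild-type pair from the first knockout array.

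Growth factor genes of the embryo were among those furthest higher in knockout cells. Igf2, the fetal insulin-like growth factor, read 5.52 and 5.95 in wild-type cells and 10.55 and 10.40 in knockout cells, a difference of 4.74 ± 0.32 (adjusted p = 0.000369). Dlk1, a membrane protein that holds back fat cell differentiation, read 6.47 and 6.15 against 10.89 and 11.56, 4.92 ± 0.38 (adjusted p = 0.000622). The amino acid transporter Slc38a4 was undetected in wild-type cells and at least 15.9-fold higher. These 3 genes are imprinted in mice, expressed from 1 parental copy. Of 10 imprinted genes tested 4 were higher and 0 lower (5 and 0 without the weak array), the fourth being the proteoglycan gene Dcn (1.76 ± 0.39), with a median of 0.77. That median turned to -0.16 under median scaling with 8 arrays, and was 0.84 under median scaling without the weak array. It was 0.49 with undetected genes held at their bound. Of the 10, 2 had passed the filter only through knockout arrays and had to be higher if they differed. With 8 arrays 40% of the list was called, against 12.7% of all genes.

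The binding proteins that hold insulin-like growth factors split by direction. Igfbp5 read 4.87 (undetected) and 6.07 in wild-type cells and 8.19 and 8.54 in knockout cells, 2.89 ± 0.41 (adjusted p = 0.00641), and Igfbp3 differed by 2.39 ± 0.43. Igfbp2 went the other way, with 7.28 and 6.81 against 4.63 and 4.86, at least 1.52-fold lower (adjusted p = 0.00469), and Igfbp7 differed by -0.91 ± 0.23 (adjusted p = 0.0485). Irs2, an adaptor of the insulin receptors, was higher by 1.33 ± 0.31. In all 4 of 17 tested genes were higher and 2 lower, in either fit. Their median of 0.38 turned to -0.34 under median scaling with 8 arrays.

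Other growth factor ligands and receptors showed 3 higher and 6 lower genes of 31 with 8 arrays (median -0.20) and 8 higher and 9 lower without the weak array (median 0.18). Areg, a ligand of the epidermal growth factor receptor, and Hgf, the hepatocyte growth factor, were undetected in wild-type cells and at least 3.95-fold and 2.95-fold higher. Angpt2, a ligand of blood vessel cells, read 11.22 and 11.31 in wild-type cells and 7.52 and 5.37 in knockout cells, -4.82 ± 0.64 (adjusted p = 0.00503; -3.78 without the weak array). Angptl4, which inhibits lipoprotein lipase, differed by -3.88 ± 0.44 and Gas6, a ligand of the Axl receptor family, by -2.71 ± 0.29. The weak array read lowest of the 4 on Angpt2, Angptl4 and Gas6, and its values there were below detection.

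Genes of the transforming growth factor-beta and bone morphogenetic protein (BMP) families were more often called lower than higher. Of 27 tested, 2 were higher and 11 lower with 8 arrays (median -1.42), 3 and 14 without the weak array. Bmp4, a ligand that patterns the embryo, read 9.29 and 9.18 in wild-type cells and 5.54 and 4.56 (the last undetected) in knockout cells. It differed by -4.19 ± 0.39 (limma adjusted p = 0.00116), and by -3.83 without the weak array. Its secreted antagonist Chrd differed by -3.76 ± 0.42 and the ligand Tgfb3 by -3.02 ± 0.61 (-2.02 without the weak array). The higher genes were Tgfbi, a matrix protein induced by the pathway, with 8.77 and 8.96 against 10.76 and 11.22 (2.12 ± 0.27, adjusted p = 0.00403), and the co-receptor Tgfbr3 (1.32 ± 0.27), whose detected probes differ in sign. Among 25 genes of the Wnt, Notch and Hedgehog pathways 1 was higher and 7 lower (1 and 11 without the weak array). The higher one was Sfrp2, a secreted Wnt modulator, undetected in wild-type cells (4.55 and 5.04) and at 8.64 and 9.05 in knockout cells, at least 10.7-fold (adjusted p = 0.000463). Lower were Rspo3, which strengthens Wnt signals, by -3.44 ± 0.45, and the Notch ligand Jag1 by -2.65 ± 0.36. Of the 25, 3 had passed the filter only through wild-type arrays and 1 only through knockout arrays.

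Collagen genes that passed with 8 arrays were lower in knockout cells. Of 20 collagen genes tested, 6 were lower and 0 higher with 8 arrays (median -1.22), and 12 and 1 without the weak array. Col1a1, the main chain of type I collagen, read 12.71 and 12.72 in wild-type cells and 11.15 and 10.06 in knockout cells, -2.11 ± 0.42 (adjusted p = 0.0228). Col3a1 read 10.94 and 11.76 against 9.76 and 10.22 and missed the threshold (-1.36 ± 0.38, adjusted p = 0.0641), but passed without the weak array (-1.60, adjusted p = 0.0236). The 1 higher gene in that fit was Col23a1, a membrane collagen, undetected in wild-type DMSO cells and at least 1.51-fold higher (adjusted p = 0.0237). Among 17 enzymes that modify and cross-link collagen, 9 were lower and 0 higher (10 and 0 without the weak array). They include the transglutaminase Tgm2, with 10.21 and 10.30 against 6.96 and 4.75 (-4.40 ± 0.65, adjusted p = 0.00741; -3.34 without the weak array), the lysyl hydroxylase Plod2 (-3.15 ± 0.47; -2.49 without it) and lysyl oxidase, Lox (-2.21 ± 0.35).

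Matricellular and elastic fibre genes held some large differences. Of 21 tested, 8 were lower and 0 higher with 8 arrays, and 9 lower and 3 higher without the weak array. Mfap5, a microfibril protein, read 11.59 and 11.72 in wild-type cells and 6.56 and 4.78 in knockout cells, -5.99 ± 0.54 (adjusted p = 0.00107; -5.17 without the weak array). Thbs1, thrombospondin-1, which activates latent TGF-beta, read 10.56 and 10.81 against 5.94 and 4.76 (the last undetected), -5.34 ± 0.44. Its relative Thbs2 differed by -2.73 ± 0.30 and the calcium-binding Smoc1 by -4.73 ± 0.47 (-5.58 without the weak array). Efemp1 and Fbln1, both of the fibulin family, stood on the other side without the weak array, Efemp1 at least 2.10-fold higher (adjusted p = 0.00181) and Fbln1 by 1.05 ± 0.21 (adjusted p = 0.0117), and neither passed with 8 arrays. Among 22 proteoglycan and hyaluronan genes 2 were higher and 5 lower (4 and 8 without the weak array), led by the glypican Gpc4 (-3.17 ± 0.30) and Prelp (-3.06 ± 0.34) on the lower side and the link protein gene Hapln4 (2.48 ± 0.31) on the higher side.

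Of 26 tested proteases that remodel the matrix and their inhibitors, 9 were lower and 0 higher (median -0.91), and 14 and 0 without the weak array. Of the 26, 3 had passed the filter only through wild-type arrays and had to be lower if they differed. The same held for 3 of the 22 proteoglycan and hyaluronan genes above. Mmp23 read 10.53 and 10.49 in wild-type cells and 4.68 and 4.51 in knockout cells, at least 16.8-fold lower (adjusted p = 4.96e-05). Mmp12, the macrophage elastase, read 9.31 and 9.45 against 4.84 and 4.83, at least 7.65-fold lower. Mmp14, the membrane collagenase, differed by -3.41 ± 0.76 (adjusted p = 0.0324; -2.12 without the weak array), with 13.98 and 13.88 against 11.83 and 9.21. Among 21 basement membrane and integrin genes 1 was higher and 6 lower (1 and 9 without the weak array). Itga3, a laminin receptor chain, read 5.52 and 5.47 against 8.07 and 7.83 and was higher by 2.46 ± 0.24 (adjusted p = 0.00151), while Itga11, the collagen receptor chain of fibroblasts, read 13.11 and 13.26 against 9.97 and 11.56 (-2.42 ± 0.49, adjusted p = 0.0243; -3.23 without the weak array).

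**Figure D3:**
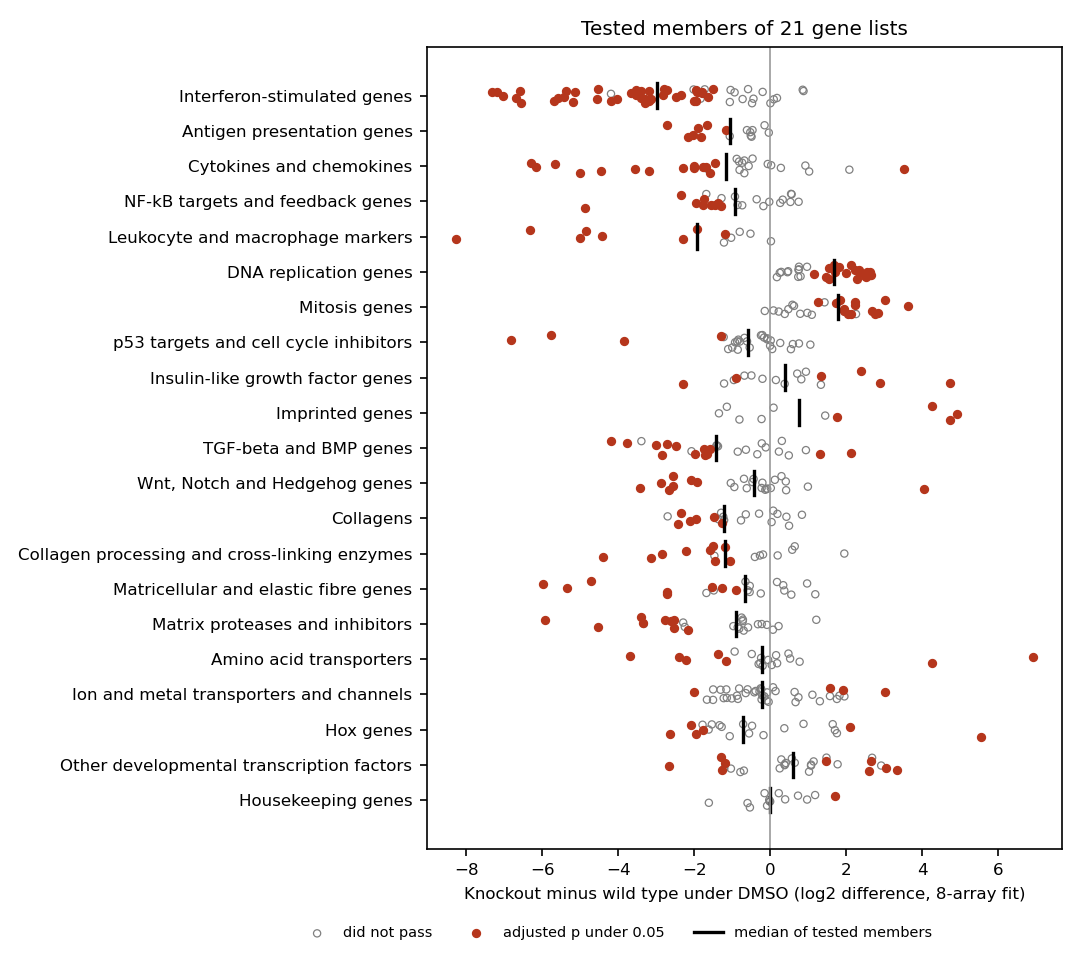
Log2 difference between knockout and wild type under DMSO (x axis, all 8 arrays in the fit) for each tested member of 21 gene lists, with filled red points for an adjusted p under 0.05, open points otherwise and a bar at the list's median. The medians lie at -2.98 for interferon-stimulated genes, 1.67 for replication genes, 1.79 for mitosis genes and -1.22 for collagens, against -0.11 over all genes.

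Transporters as a class did not move one way, but single members were among the genes furthest apart. Of 20 amino acid transporters 2 were higher and 5 lower (3 and 7 without the weak array), and 3 had passed the filter only through wild-type arrays and 4 only through knockout arrays. The 2 higher were Slc1a3, described above, and Slc38a4, each undetected in wild-type cells. Slc6a15, a neutral amino acid carrier of nerve cells that was not on that list, read 4.65 and 4.56 in wild-type cells and 8.64 and 9.09 in knockout cells, at least 10.9-fold higher (adjusted p = 0.000328). The lower ones included Slc6a17, a carrier of synaptic vesicles, with 9.28 and 9.20 against 5.10 and 5.98 (at least 6.96-fold, or 16.3-fold without the weak array, adjusted p = 0.00107), the arginine carrier Slc7a2 (-2.39 ± 0.26), the cystine carrier Slc7a11 (at least 1.65-fold) and the serine carrier Slc1a4 (-1.38 ± 0.26). The list's median was -0.22 and turned to 0.07 without the weak array. Among 21 carriers of glucose, lactate, nucleosides and organic anions 2 were higher and 3 lower (2 and 5 without the weak array). Slco4a1, an organic anion carrier, was undetected in wild-type cells and at least 11.8-fold higher, and the prostaglandin carrier Slco2a1 was at least 3.46-fold lower (adjusted p = 0.000455). Of these 21, 3 had passed the filter only through wild-type arrays and 2 only through knockout arrays.

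Ion and metal transport genes lay near the background share, with 3 higher and 1 lower of 39 (4 and 4 without the weak array). Tfrc, the transferrin receptor that brings in iron, read 7.90 and 7.97 in wild-type cells and 10.29 and 11.62 in knockout cells, 3.02 ± 0.44 (adjusted p = 0.00689; 2.38 without the weak array). Slc12a2, the sodium-potassium-chloride cotransporter, was higher by 1.91 ± 0.32 and the potassium channel Kcnk2 by 1.58 ± 0.24. The lower one, the potassium channel Kcnj15, was undetected in knockout cells and at least 1.25-fold lower. For ABC transporters the share called with 8 arrays was 7.14%, below the 12.7% of all genes. Of 14 ABC transporters the drug efflux pump Abcb1b was the called member with 8 arrays (2.31 ± 0.34, adjusted p = 0.00757), and 2 were higher and 1 lower without the weak array.

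Genes that record the position and lineage of cells differed in both directions. Hoxd8, a homeobox gene of the trunk and limb, read 4.84 and 4.99 in wild-type cells, undetected, and 10.31 and 10.61 in knockout cells, at least 32.9-fold higher (adjusted p = 7.89e-05). Hoxd9, its neighbour in the same cluster, was at least 2.54-fold higher, and Hoxd4 passed without the weak array, at least 5.19-fold higher (adjusted p = 0.000116). Members of other clusters were lower. Hoxb7 read 10.69 and 10.69 against 8.00 and 8.09, -2.65 ± 0.24 (adjusted p = 0.00109), Hoxb6 differed by -2.09 ± 0.35, Hoxb5 by -1.95 ± 0.32 and Hoxa5 by -1.78 ± 0.41 (-2.39 without the weak array). Of 39 Hox genes on the array 21 were tested, with 2 higher and 4 lower in all, 4 and 7 without the weak array. Of the 21, 3 had passed the filter only through knockout arrays and had to be higher if they differed.

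Other developmental transcription factors gave 5 higher and 4 lower of 28, and 12 and 5 without the weak array, 8 of the 28 having passed the filter only through knockout arrays. Meox1, a factor of the early somites, was undetected in wild-type cells (4.83 and 5.15) and read 8.01 and 8.63 in knockout cells, at least 7.48-fold higher. Dlx1, a homeobox gene of the forebrain and the facial skeleton, was at least 5.84-fold higher. The lower ones included Foxc1 (-2.65 ± 0.53; -1.84 without the weak array), its relative Foxc2 (-1.26 ± 0.26) and Gata6 (-1.29 ± 0.30), factors of the mesoderm. Klf4, a factor of growth arrest and differentiation, differed by -3.71 ± 0.64 (adjusted p = 0.0131; -2.77 without the weak array).

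Of 17 fibroblast and mesenchyme markers 4 were higher and 4 lower (5 and 6 without the weak array). Pdgfra, the receptor that marks mesenchymal progenitors, read 8.12 and 7.88 in wild-type cells and 10.51 and 11.62 in knockout cells, 3.06 ± 0.39 (adjusted p = 0.00441), and S100a4, Dcn and Thy1 were also higher, by 2.12, 1.76 and 1.32. Fap, the activated fibroblast protease, was at least 2.18-fold lower, and Sparc, which binds collagen, differed by -1.52 ± 0.28. Cd34, which marks progenitors of blood, vessels and connective tissue, was undetected in wild-type cells (4.90 and 4.84) and read 9.44 and 11.00 in knockout cells, at least 27.9-fold higher (adjusted p = 0.00129), or at least 17.9-fold without the weak array. Of 10 smooth muscle and myofibroblast genes 3 were lower and 0 higher (5 and 0 without the weak array), including Lmod1, at least 1.77-fold, and Tagln (-1.34 ± 0.28). Msln, a surface protein of mesothelium, was undetected in wild-type cells (4.58 and 4.58) and read 8.17 and 8.57 in knockout cells, at least 7.72-fold higher (adjusted p = 0.000367). The other tested member of that list of 12 markers did not pass. Flt1, a VEGF receptor of vessel cells, read 11.53 and 11.25 against 8.12 and 7.88, -3.39 ± 0.26 (adjusted p = 0.000603), the 1 endothelial marker of 4 tested that passed with 8 arrays (2 were lower without the weak array).

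Of 8 cartilage and bone genes 1 was higher and 1 lower (2 and 2 without the weak array). Sox9, which starts cartilage, was undetected in wild-type cells and at least 4.46-fold higher, while Mgp, which keeps cartilage from calcifying, differed by -1.55 ± 0.24. Of 6 fat cell genes 2 were higher and 1 lower in either fit. Lpl, lipoprotein lipase, was higher by 2.88 ± 0.27 (adjusted p = 0.00139), and Pparg, the master factor of fat cells, was undetected in knockout cells and at least 2.27-fold lower. Of 3 tested sex chromosome genes 1 passed, and it was lower. That gene, the Y-linked Eif2s3y, read 7.73 and 7.41 in wild-type cells and 4.76 and 4.51 in knockout cells, neither detected, at least 2.19-fold lower (adjusted p = 0.000961). Ddx3y read 10.13 and 9.79 against 9.63 and 4.78, the last not detected (-2.76 with 8 arrays and -0.34 without the weak array, neither called). Xist, the RNA of the inactive X chromosome, read 7.63 and 7.59 against 7.52 and 8.35, 0.32 ± 0.33 (adjusted p = 0.52), and its detected probes differ in sign.

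Among 21 sterol synthesis genes and relatives 3 were higher and 1 lower with 8 arrays, and 8 and 3 without the weak array (52.4% called, against 27.5% of all genes). Stard4, which carries cholesterol, was higher by 2.90 ± 0.41 (2.30 without the weak array), and the synthetic enzyme Lss by 1.25 ± 0.27. Ch25h, an interferon-inducible enzyme that hydroxylates cholesterol, read 11.67 and 11.67 in wild-type cells and 8.51 and 8.62 in knockout cells, -3.10 ± 0.25 (adjusted p = 0.000739). The list's median of 0.27 turned to -0.48 under median scaling with 8 arrays. Of 28 genes of the unfolded protein and integrated stress responses 2 were higher and 4 lower (3 and 8 without the weak array), led by the stress regulators Trib3 (-3.56 ± 0.57; -2.62 without it) and Nupr1 (-3.43 ± 0.30). Of 28 glycolysis and hypoxia genes 1 was higher, the enolase Eno1 (1.92 ± 0.42), and 2 were lower (3 and 3 without the weak array). Of 31 heat shock and oxidative stress genes 1 was higher and 5 lower (5 and 8 without the weak array). Among the lower ones was Hspb1, which read 11.41 and 11.62 against 5.12 and 5.14, at least 33.7-fold (adjusted p = 4.53e-05). Of the 31, 4 had passed the filter only through wild-type arrays and had to be lower if they differed. With 8 arrays 10.7% of the glycolysis and hypoxia genes, 19.4% of the heat shock genes and 21.4% of the unfolded protein genes were called. The share was 19% for sterol genes and 7.14% for housekeeping genes, against 12.7% of all genes. Of 14 housekeeping genes 1 passed with 8 arrays, the ribosomal protein gene Rplp0, higher by 1.72 ± 0.42 (adjusted p = 0.0435; 1.09 without the weak array), and 3 were higher without the weak array.

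For some genes the call rests on whether the weak array is kept. Without it 1415 further genes passed. The naming rule took those that also differed in the same direction under c-di-GMP. Irx2, a patterning factor, read 4.65 and 4.66 in wild-type cells and 8.62 and 6.06 in knockout cells, the last undetected. It missed the threshold with 8 arrays (adjusted p = 0.0629) and passed without the weak array, at least 10.1-fold higher. Irx5, of the same family, behaved alike, with 2.75 ± 0.23 without the weak array. On the lower side Crip2, a cysteine-rich LIM protein, read 10.37 and 10.26 against 5.57 and 9.01, and without the weak array differed by -4.88 ± 0.20 (adjusted p = 2.21e-05). Ctsc, a lysosomal protease that activates the granule enzymes of immune cells, read 9.47 and 9.44 against 5.77 and 8.46, and Fcer1g, an immune receptor subunit, read 8.66 and 8.53 against 4.79 and 7.89. On Crip2, Ctsc and Fcer1g the weak array lay closer to the wild-type arrays than to the first knockout array. Spp1, osteopontin, went further. It read 11.16 and 11.04 in wild-type cells, 13.72 on the first knockout array and 7.41, undetected, on the weak one, so it differed by -0.54 ± 1.73 with 8 arrays and by 2.63 ± 0.21 without (adjusted p = 0.00026).

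The arrays of the c-di-GMP arm, which share no sample with the DMSO arrays though they share the model's spread estimate, gave the genotype difference again in treated cells. There 1335 genes passed (14%). Of the 1214 genes called under DMSO, 853 were also called under c-di-GMP in the same direction, 70.3% of the DMSO genes and 63.9% of the c-di-GMP genes. Only 8 of the 1214 had the opposite sign, and 0 of these 8 passed. As examples, Cdkn2a differed by -5.76 under DMSO and -5.99 under c-di-GMP, Igf2 by 4.74 and 5.45 and Hoxd8 by 5.54 and 5.56. Mcm2 differed by 2.62 and 2.33, Col1a1 by -2.11 and -2.14 and Lyz1 by -8.27 and -7.85. None of these 6 passed the test of the difference between treatments with 8 arrays. That test had a median SE of 0.53, so not passing it does not show that the differences were equal. Where a gene was undetected in a group, as Cdkn2a and Lyz1 were in knockout cells and Hoxd8 in wild-type cells, the fitted size depends on the background level. Among replication genes 16 of 31 were higher under c-di-GMP and among collagens 7 of 20 were lower. Of the 58 interferon-stimulated genes 51 were called lower under c-di-GMP and 41 under DMSO. Rsad2 differed by -6.58 under DMSO and -9.83 under c-di-GMP, and the test of that change missed the threshold with 8 arrays (limma adjusted p = 0.092) and passed without the weak array (0.021). Irf7 differed by -2.02 and -4.96 and passed in neither fit. The test of a change between treatments passed for 4 genes with 8 arrays and for 48 without the weak array, and the remaining genes were not shown to differ between treatments.

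**Figure D4:**
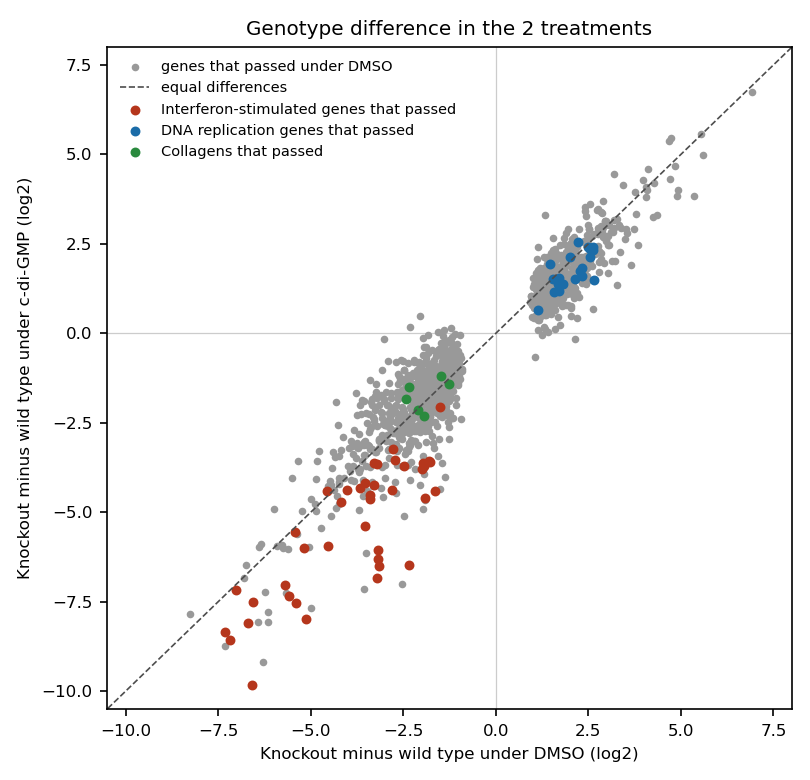
Genotype difference (knockout minus wild type, log2) under DMSO (x axis) and under c-di-GMP (y axis) for the 1214 genes that passed under DMSO, with interferon-stimulated genes in red, replication genes in blue, collagens in green and the dashed line where both differences are equal. Of the 1214 genes 8 lie on opposite sides of 0, and Rsad2, at -6.58 and -9.83, lies below the line.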

How the data were processed

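Probe signals and detection p-values came from the authors' non-normalized intensity table, with a signal and a p-value for each probe on each array, per the file headers. The submitters' processing notes name GenomeStudio 2010.2; its settings and the genome build are not given in the sources used here. A normalized intensity table that the authors deposited on a linear scale served as an alternative.

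Probes carried 18138 names, updated through RefSeq's GRCm38.p6 gene table to 17870 symbols (20733 of 25697 probes by exact name, 3872 by a synonym, 122 by gene number, 939 as in the file); 31 probes named by a date stayed unnamed. Sequences are RefSeq's for GRCm38.p6.

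In R 4.3.3, the neqc function of limma 3.58.1 corrected the background from the detection p-values (normexp, offset 16), equalised quantiles and took log2. Probes detected (p under 0.05) on at least 2 of 8 arrays were kept (13008), and each gene was read from its brightest probe (9541 genes, 2456 with several). Of 164 named genes, 41 had several detected probes, which differed in sign for 4 and in size for others. Those of Lig1 ranged from 0.44 to 2.65 and those of Cdkn2a from -5.76 to -3.10. A model with 1 mean per group was fitted to all 8 arrays (4 residual and 2.77 prior degrees of freedom; 3 and 3.83 without the weak array), with moderated two-sided tests and Benjamini-Hochberg adjustment over all genes. On simulated data with known changes in the DMSO comparison over 9541 genes, it recovered 4%, 34%, 80% and 86% of 50 genes each at log2 changes of 1, 2, 3 and 5, and called 0.0107% of 9341 unchanged genes; without the weak array these were 22%, 76%, 96% and 98%, and 0.0642%. The simulation gave the weak array wider random noise centred on each gene's mean. The real array had a high detection limit and a narrow signal range, so these rates may not carry over to these data. The number of arrays limits the precision.

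Genes named include the 12 furthest in each direction that passed in both fits, with both knockout DMSO arrays beyond both wild-type DMSO arrays. Named too are up to 4 per direction and list passing in either fit (the member with the smallest p where none passed). A fixed set of TRIF, interferon and sex chromosome genes was included, as were up to 8 per direction that passed without the weak array alone and also under c-di-GMP. Mtap, Calhm6, Uhrf1, Mcm6, Chaf1a, Il18, Nfkb1 and the detection of Csf1r, Cd68, Ptprc and Itgam were added after values were seen. The comparison, the lists and the named set were chosen with earlier results of these data known, and no list was tested as a set. Some genes that the naming rule takes are not reported here. Alternatives covered scaling, background, the filter, probes, array weights, samples in the fit and each array left out.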

Additional observations from a re-analysis of the deposited data

Results flagged for a closer look

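A test of whether the genotype difference changed between treatments passed for 4 genes in the fit of 8 arrays. In each the fitted difference was more negative under c-di-GMP than under DMSO. Calhm6, a membrane channel gene, differed by -0.14 under DMSO and -5.37 under c-di-GMP, a change of -5.23 (limma adjusted p = 0.0173). Ifnb1 differed by -0.19 and -4.88, a change of -4.70. Neither of the pair was detected on any DMSO array. Their DMSO differences are therefore differences of background, and their changes rest on the c-di-GMP arrays alone. Cd274, the immune checkpoint ligand PD-L1, differed by -2.53 and -7.01, a change of -4.47, and Oasl1, a regulator of interferon translation, by -2.35 and -6.47, a change of -4.12. Each of these last 3 genes had an adjusted p of 0.0418. Under DMSO Cd274 read 8.70 and 8.30 in wild-type cells and 5.71 and 6.22 in knockout cells, and Oasl1 read 7.13 and 6.72 against 4.49 and 4.65. Without the weak array the changes were -5.35, -5.05, -4.28 and -4.10 for Calhm6, Ifnb1, Cd274 and Oasl1.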

How the results depend on the processing

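The count of genes called under DMSO (1214, with 500 higher and 714 lower) stayed within 1.5 times under no background correction (1389), the authors' normalized table (1410), no detection filter (1103), a filter on the DMSO arrays (1231), the mean of a gene's probes (1305) and median scaling without the weak array (1684, 640 of them lower). It fell to 159 (5 higher, 154 lower) under median scaling, to 108 (17 and 91) with the DMSO arrays alone, and to 274 (76 and 198) with array weights, where both knockout DMSO arrays weighed 0.109. The higher share of calls, 41.2%, was then 3.14%, 15.7% and 27.7%. Alternatives added after seeing the data gave 1044 higher genes under median scaling without the weak array (62% higher) and 3296 genes (1692 and 1604) from the authors' table without it. Leaving out each array in turn gave 270 to 6134 genes, 72 to 2578 higher and 194 to 3556 lower; the highest counts came without the first knockout DMSO array. The c-di-GMP count of 1335 became 208 under median scaling and ranged from 374 to 4269 with each array left out. The 4 genes that differed between treatments became 0 under median scaling (107 at an unadjusted p under 0.05) and ranged from 0 to 4650 with each array left out; at an unadjusted p under 0.05 the 6 settings with 0 gave 217 to 464. The causes were not tested.

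With the replicate number as a block, limma called 944 genes under DMSO (373 higher, 571 lower), 1070 under c-di-GMP and 0 between treatments (419 at an unadjusted p under 0.05). Same-numbered arrays of different groups deviated with correlations of -0.03 to 0.06, so no shared deviation was seen between them. Noise of single arrays, large on the weak array, could hide a shared culture or day. Whether the numbers pair the samples therefore cannot be decided from these correlations.

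Some named genes changed sign. Under median scaling Thy1 gave -0.014, Mcm6 -0.20, Cd14 -0.23, Fbln1 -0.39, Xist -0.53 and Mtap -0.71. Anln gave 0.12 without background correction, 0.10 in the authors' table, 0.52 over its probes' mean, 2.31 under median scaling without the weak array and 1.91 in the authors' table without it. Nfkb1 gave 0.045, 0.039, 1.20 and 0.72 in the first, second and last 2 of these settings. Spp1 gave 2.75 and 2.55 in the last 2, Tlr4 0.34 and 0.029, and in the last Ifnb1 gave 0.0020 and Xist -0.055. Over its probes' mean Xist gave -0.16 and Mtap -0.13. With each array left out Spp1 ranged from -3.68 to 2.63, Anln from -2.36 to 2.10, Col23a1 from -0.17 to 1.26, Ticam1 from -0.16 to 0.50, Irf3 from -0.64 to 0.048, Tlr4 from -1.73 to 0.067, Tbk1 from -0.53 to 0.20, Xist from -0.092 to 0.73, Mtap from -0.69 to 1.22, Cd14 from -0.86 to 0.94, Nfkb1 from -0.99 to 0.95 and Il18 from -0.43 to 1.09. What the weak array's high detection limit hides could not be measured: 4866 of the tested genes were detected on it.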

Other observations

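Genes next to Ticam1 on its chromosome were looked at after the data were seen. Of the 40 nearest protein-coding genes, 20 on each side, 30 were on the array and 19 were tested. In the DMSO comparison 2 passed (10.5%, against 12.7% of all genes), the replication genes Chaf1a (2.33) and Uhrf1 (2.34). Without the weak array these 2 differed by 1.83 and 1.50. Around Cdkn2a, 6 neighbours were on the array and 3 were tested, of which Cdkn2b passed with 8 arrays, and 2 passed without the weak array.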
